A study of Mus musculus with 32 samples.

Results

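The 9 genes described here encode heavy chains of class II myosins, the motor proteins of muscle and of contractile actin bundles. They are Myh7, Myh6, Myh7b, Myh9, Myh10, Myh14, Myh11, Myh1 and Myh2, and they were chosen by measured values of these same arrays: Myh7 was higher in stressed hearts. The array carried 11 probes for them among 55681 probes, found by the gene name in the scanner files. Of the 9 genes, 7 passed the filter on dim probes and were among the 27532 genes tested. Myh1 and Myh2, heavy chains of fast skeletal muscle, did not pass.

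RNA came from heart tissue of 32 individual C57BL/6 mice, an array for each mouse, in 8 groups of 4. The stressed groups spent 6 hours a day in a mesh box inside the cage of an aggressor mouse, with short bouts of attack several times a day, for 5 or 10 days, and then rested for 1, 10 or 42 days. They are named by days of trauma (T) and of rest (R): stressed T5R1, T5R10, T10R1 and T10R42. Each had its own control group, which sat in mesh boxes in a cage without an aggressor, so the controls share the confinement. Ages and sexes are not given in the sources used here, and the design asks how the length of exposure and of rest bears on the response. The 8 arrays of a condition lay on 1 slide, so slide and condition cannot be told apart, and on every slide the stressed arrays and the control arrays stood in different columns, so column and stress cannot be told apart either. The T10R1 slide was scanned on another day than the other 3 slides.

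Heart muscle fibres of the adult mouse are driven mainly by the fast alpha heavy chain, the product of Myh6. The slow beta chain, the product of Myh7, is the main form before birth and returns in ventricles under load or with low thyroid hormone, and its mRNA is a textbook readout of such states. Myh7b is an old relative of both, Myh9, Myh10 and Myh14 encode the nonmuscle chains that power cell shape, migration and division, and Myh11 encodes the smooth muscle chain of vessel walls.

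Myh6 and Myh7 lie next to each other on mouse chromosome 14, on the minus strand. The probes are given in the positions of the array design on mm9, and the first 30 of their 60 bases are shown for the genes whose values carry the results. The longest run that a Myh6 probe has in common with the Myh7 probe is 8 bases, between Myh7 and the second Myh6 probe. The probes were compared only with each other and not with whole mRNAs, so whether a Myh6 probe also binds Myh7 mRNA was not tested.
Myh7 probe, chr14:55589581-55589640: atgaggagtagctcttgtgctacccagctc
first Myh6 probe, chr14:55560774-55560833: gcacgacgaggaataacctctccagcagac
second Myh6 probe, chr14:55584132-55584191: agtgcttcgtgcctgatgacaaggaggagt
Myh9 probe, chr15:77591019-77591078: tacagtaagctggtttacagatgtttccac
first Myh14 probe, chr7:51861189-51861248: tctgtgtgctcatagggtaatgctcatggc
The 2 Myh6 probes lie 23298 bases apart, and 5389 bases separate the second from the Myh7 probe. The Myh7b probe (chr2:155459122-155459181, plus strand) is shown whole because, of the members' probes, its signal differed most between the slides with 1 day and with longer rest, with its longest run shared with another heavy chain probe, 9 bases of a Myh8 probe, in capitals.
Myh7b probe: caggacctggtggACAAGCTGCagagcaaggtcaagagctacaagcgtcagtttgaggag

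The stretches of 250 bases before the transcript starts of Myh7 and Myh6 are shown because the balance of these 2 mRNAs carries the main result. They are from RefSeq on GRCm38.p6, read on the minus strand, and 32851 promoters of the same length were searched for comparison. Each of 6 short motifs was searched on both strands. Of all the promoters, 12.6% hold CATTCC, the element that TEAD factors bind in many muscle genes. The letters AGATAA, which zinc finger factors of early heart development recognise, were in 10.0%. Part of the site of thyroid hormone receptors, AGGTCA, was found in 14% of these windows. An E box was searched as CACGTG and was present in 6.0% of the promoters. The core promoter box TATAAA was held by 12.4%, and a MEF2 site, searched by name, by 2.9%. Capitals mark the letters found.
Myh7, chr14:54994627-54994876: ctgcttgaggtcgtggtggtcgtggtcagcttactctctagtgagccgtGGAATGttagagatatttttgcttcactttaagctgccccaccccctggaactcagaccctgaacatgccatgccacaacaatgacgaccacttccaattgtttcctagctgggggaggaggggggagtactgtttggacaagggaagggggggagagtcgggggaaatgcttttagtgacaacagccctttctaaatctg
Myh6, chr14:54966608-54966857: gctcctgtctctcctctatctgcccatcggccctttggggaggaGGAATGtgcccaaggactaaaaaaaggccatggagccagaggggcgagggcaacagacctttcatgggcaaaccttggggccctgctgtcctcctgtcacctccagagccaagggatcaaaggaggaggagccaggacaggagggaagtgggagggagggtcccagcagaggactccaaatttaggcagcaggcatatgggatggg
The first of these motifs matched once in each, on the opposite strand as GGAATG, at position -201 from the Myh7 start and -206 from the Myh6 start. No exact match to the other motifs was in these windows. Sites that depart from the letters searched were not looked for, so known sites with other letters may lie there. RefSeq gives a further Myh7 start 77 bases downstream of the one used, and its window held no exact match to any of the 6.

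Myh6, Myh7 and Myh7b also carry microRNAs in their introns, a family known for acting within the heavy chain network. Their mature sequences, from RefSeq on GRCm38.p6, have the seed (bases 2 to 8) in capitals.
miR-208b-3p of Myh7, chr14:54975710-54975731: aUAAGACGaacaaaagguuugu
miR-208a-3p of Myh6, chr14:54949072-54949093: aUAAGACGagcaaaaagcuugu
miR-499-5p of Myh7b, chr2:155622893-155622913: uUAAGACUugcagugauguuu
The miR-208 pair share the seed UAAGACG, whereas that of miR-499-5p ends in another base. The array had 0 probes named for the 3 microRNA genes, so they were not measured here.

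Values are log2 levels: the log2 of a probe's processed signal over the 75th percentile of its array, a scale on which 1 unit is a 2-fold step and on which a probe can be compared between hearts but not with another probe. The mean of Myh7 was higher in stressed than in control hearts in all 4 conditions. In T10R1 its log2 levels were 8.0, 7.46, 6.24 and 7.95 in stressed hearts, against 4.58, 4.84, 4.80 and 4.52 in control hearts. The lowest stressed heart stood well above the highest control heart. The mean was 7.41 ± 0.82 in stressed and 4.68 ± 0.16 in control hearts (SD, n = 4 each), a difference of 2.73 ± 0.39 (SE), or 6.63-fold, and 2 genes of the 27532 had a larger one. By the same measure Myh7 ranked 391 in T5R1, 4 in T5R10 and 571 in T10R42. As Myh7 chose the genes described here, its stress differences are given without a test.

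In T5R10, Myh7 read 5.48, 5.82, 7.10 and 6.46 in stressed hearts, against 4.45, 4.51, 4.40 and 5.02 in control hearts. The arms did not overlap, and the difference was 1.62 ± 0.39 (SE), or 3.08-fold. The scanner software marked 3 arrays of that slide for evaluation, stressed replicates 1 and 2 and control replicate 4. The 2 stressed hearts so marked were the lower ones for Myh7. Without the 3 arrays, which left stressed replicates 3 and 4 against control replicates 1, 2 and 3, the difference was 2.33.

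In T5R1, Myh7 read 6.67, 6.11, 5.52 and 7.08 in stressed hearts, against 5.22, 5.61, 5.13 and 5.19 in control hearts. Stressed replicate 3 lay inside the control range, and the difference was 1.05 ± 0.39 (SE), or 2.08-fold. In T10R42 it read 5.50, 5.66, 4.81 and 4.75 in stressed hearts, against 5.83, 4.39, 4.36 and 4.25 in control hearts. Control replicate 1 there was the highest of all 8 hearts, and the difference was 0.47 ± 0.39 (SE); without that heart it was 0.84. Over the conditions, the arms separated for Myh7 in T5R10 and T10R1 only, where 5.84% and 9.77% of all genes tested had arms that did not overlap.

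**Figure D1:**
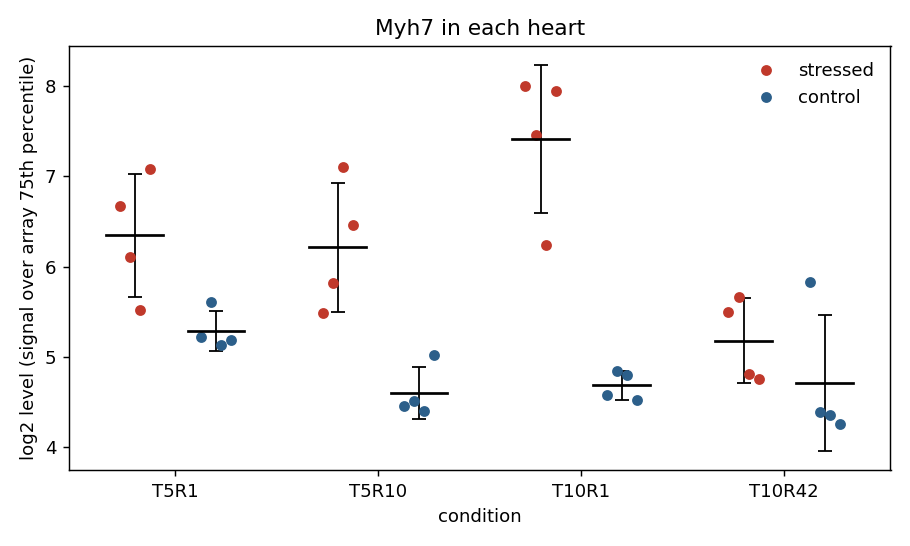
Myh7 log2 level (vertical axis, log2 of signal over the array's 75th percentile) in each heart of the 4 conditions (horizontal axis), stressed in red and control in blue, with bars for mean and SD of 4 hearts. Stressed T10R1 hearts lie between 6.24 and 8.0, above all control hearts, while the T10R42 arms overlap.

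The stressed groups ran from 7.41 in T10R1 through 6.34 in T5R1 and 6.22 in T5R10 to 5.18 in T10R42, and their neighbours in that order overlapped in range. The control groups had means of 5.29 in T5R1, 4.71 in T10R42, 4.68 in T10R1 and 4.59 in T5R10. The longer rest had a smaller Myh7 difference after 10 days of exposure (T10R42 minus T10R1, a change in log2 difference of -2.26 ± 0.55, SE). After 5 days of exposure it was larger with the longer rest by about its error (T5R10 minus T5R1, 0.57 ± 0.55, SE), and by 1.28 without the 3 marked arrays. Leaving out 1 array at a time, that value ranged from 0.27 (without stressed T5R10 replicate 3) to 0.81. At 1 day of rest, 10 days of exposure had a larger Myh7 difference than 5 days (1.68 ± 0.55, SE).

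Myh6, the adult fast chain, was lower in the mean of stressed hearts in all 4 conditions, by much less than Myh7 was higher. Its first probe was among the brightest spots of the arrays, with processed signals from 314900 to 469100 where the highest of any gene spot was 570200, and none was saturated. It read 9.62, 9.79, 10.30 and 10.09 in stressed T5R1 hearts, against 10.19, 10.28, 10.14 and 10.28 in control T5R1 hearts. Stressed replicate 3 was above all 4 control hearts, while the other 3 stressed hearts were below them. The differences were -0.27 in T5R1, -0.24 in T5R10, -0.19 in T10R1 and -0.19 in T10R42 (SE 0.13 each), and limma called none of them (adjusted p = 0.161, 0.425, 0.584 and 0.441). Without stressed T5R1 replicate 3 the T5R1 difference was -0.39 and was called (adjusted p = 0.0499). Its size depended on the processing and on the arrays left out. Over these alternatives it ran from -0.40 to -0.08 in T5R1 and from -0.33 to -0.09 in T5R10. For T10R1 the range was -0.27 to -0.06, and for T10R42 -0.26 to -0.05. Of the 22 alternatives in T5R1, 2 gave a call.

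The second Myh6 probe gave a larger difference in T5R1. It read 4.51, 4.70, 5.17 and 4.92 in stressed hearts, against 5.35, 5.47, 5.29 and 5.28 in control hearts. The arms did not overlap, the difference was -0.52 ± 0.15 (SE), and limma called it with p-values adjusted over all kept probes (adjusted p = 0.0268). In T5R10 it differed by -0.27 ± 0.15 (adjusted p = 0.446), and in T10R1 and T10R42 both by 0.01 ± 0.15 (adjusted p = 0.993 and 0.976), so the probes of Myh6 did not move alike there. With the mean of the 2 probes in place of the brighter, Myh6 in T5R1 was called at -0.40 (limma, adjusted p = 0.044).

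The balance of Myh7 to Myh6 was taken in each heart as the log2 difference of the 2 levels, set against the mean of the control hearts of its condition. It was 3.66, 3.01, 1.78 and 3.20 in stressed T10R1 hearts, against -0.12, 0.23, -0.09 and -0.02 in control T10R1 hearts, a mean ratio 7.55 times that of controls. The means of the stressed hearts were 1.33 ± 0.85 in T5R1, 1.86 ± 0.64 in T5R10, 2.92 ± 0.80 in T10R1 and 0.66 ± 0.65 in T10R42 (SD, n = 4 each), with control SDs of 0.18, 0.29, 0.16 and 0.64. Stressed hearts stood apart from control hearts in T5R10 and T10R1 and overlapped with them in T5R1 and T10R42, where control replicate 1 reached 0.97. With the second Myh6 probe the means were 1.58, 1.89, 2.72 and 0.46, and there the T5R1 arms did not overlap either. As Myh7 chose these genes, the balance has no test.

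**Figure D2:**
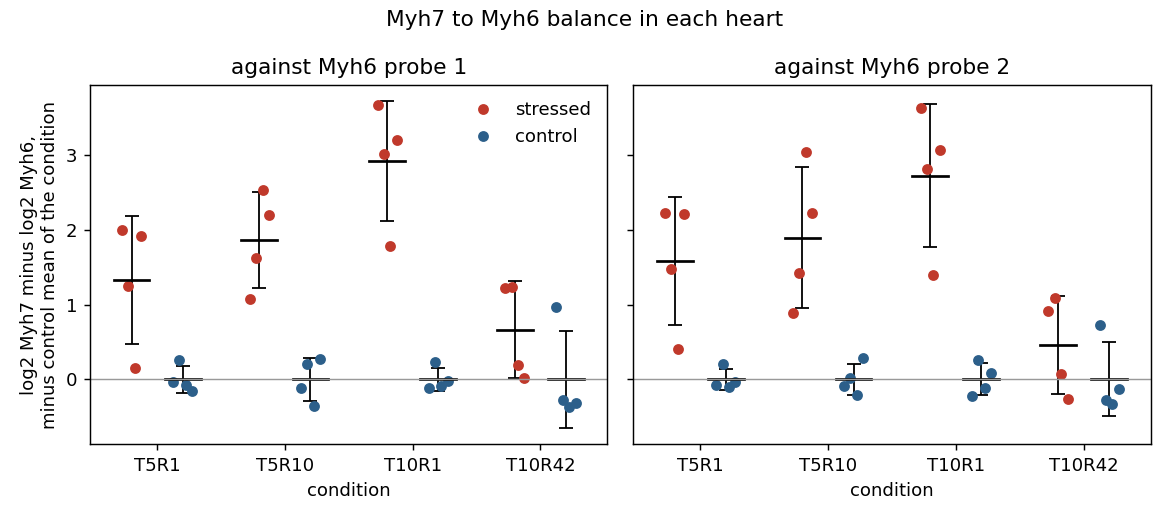
Balance of Myh7 to Myh6 in each heart (vertical axis, log2 ratio minus the control mean of the condition) in the 4 conditions (horizontal axis), stressed in red and control in blue, against the first Myh6 probe (left) and the second (right), with bars for mean and SD of 4 hearts. With the first probe, stressed T10R1 hearts lie between 1.78 and 3.66 and control T10R1 hearts between -0.12 and 0.23.

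The 6 measured genes other than Myh7 were tested with limma over all 27532 genes, with a call at an adjusted p below 0.05. In T5R1 limma called 2 of the 6, Myh9 higher and Myh14 lower, where it called 13.7% of all genes (5.3% higher and 8.43% lower), and the arms of 3 of the 6 did not overlap, where 22.3% of all genes had such arms. Of all the genes called there, 61.4% were lower with this scaling, against 17.6% with scaling by the array median, and the median difference of all genes was -0.12. None of the 6 was called in T5R10 (0.0763% of all genes called), T10R1 (1.13%) or T10R42 (0.897%, with arms apart for 11.4%). Before adjustment, limma put 5 of the 6 below 0.05 in T5R1, 1 in T5R10, 1 in T10R1 and 0 in T10R42. Among all 27532 genes it put 8126, 3843, 3613 and 5166 below 0.05, in the same order.

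Myh9, which encodes nonmuscle myosin IIA of migrating, blood and connective tissue cells, rose in T5R1. It read 4.94, 4.60, 5.02 and 4.69 in stressed hearts, against 4.58, 4.47, 4.46 and 4.33 in control hearts. The arms did not overlap by a narrow margin, and the difference was 0.35 ± 0.09 (SE), or 1.28-fold (limma, adjusted p = 0.0123). Fitted on the T5R1 arrays alone it was not called (adjusted p = 0.0851), nor without stressed replicate 1 (0.0551) or stressed replicate 3 (0.0514). The differences in the other conditions were 0.02 in T5R10, 0.09 in T10R1 and -0.05 in T10R42 (SE 0.09 each, adjusted p from 0.723 to 0.939). The stress effect in T5R10 less that in T5R1 was -0.33 ± 0.13 (SE, limma, adjusted p = 0.18).

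Myh14, which encodes nonmuscle myosin IIC, fell in T5R1. Its first probe read 4.30, 4.24, 3.94 and 4.33 in stressed hearts, against 4.85, 4.82, 4.73 and 4.72 in control hearts. No stressed heart came within the control range, and the difference was -0.58 ± 0.15 (SE), a level 0.67 times that of controls (limma, adjusted p = 0.00927). Scaled by the array median it was -0.43 and not called (adjusted p = 0.0835). The second, much dimmer probe also had arms apart in T5R1 but did not pass over probes (-0.41 ± 0.15, adjusted p = 0.0642), and in T5R10 the probes disagreed, with 0.11 for the first and -0.49 for the second, neither called (adjusted p = 0.772 over genes and 0.145 over probes).

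In T10R1 Myh14 differed by -0.17 and in T10R42 by -0.14 (SE 0.15 each, adjusted p = 0.668 and 0.66). In T10R42 stressed replicate 4 was low, at 4.01, while the other stressed hearts read 4.97, 5.00 and 4.89, and without it the difference was 0.10. Between T5R10 and T5R1 the stress effect on Myh14 differed by 0.69 ± 0.21 (SE), and limma did not call it (adjusted p = 0.075), except with the arrays of those 2 conditions fitted alone (adjusted p = 0.0418).

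Myh10, which encodes nonmuscle myosin IIB, was not called in any condition. Its largest difference was in T10R1, where it read 0.67, 0.31, 0.45 and 0.49 in stressed hearts, against 0.18, 0.13, 0.19 and 0.30 in control hearts. The arms just did not overlap, and the difference was 0.28 ± 0.12 (SE, adjusted p = 0.288). It was 0.19 in T5R1, -0.09 in T5R10 and -0.16 in T10R42 (SE 0.12 each).

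Myh11 of smooth muscle had the largest mean difference of the 6 in T5R1 and the widest spread. It read -1.42, -0.43, -1.05 and -0.51 in stressed hearts, against 0.09, -0.03, -0.56 and -0.34 in control hearts. The ranges overlapped, and the difference of -0.64 ± 0.24 (SE) was not called (adjusted p = 0.077), except without stressed replicate 2 (-0.78, adjusted p = 0.0472). In T10R42 it went the other way, 0.29 ± 0.24 (adjusted p = 0.554).

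Myh7b had arms apart in T5R1, at 6.78, 7.24 and 7.12 in 3 stressed hearts, the spot of replicate 2 being marked as an outlier and left out, against 7.52, 7.34, 7.50 and 7.32 in control hearts. The difference was -0.37 ± 0.15 (SE), and limma did not call it (adjusted p = 0.101), except without the 3 marked arrays of T5R10 (adjusted p = 0.0259). In T5R10 it read 5.73, 5.75, 5.12 and 4.95 in stressed hearts, against 5.71, 5.72, 5.93 and 5.99 in control hearts. The first 2 stressed hearts are the marked ones and lie with the controls. With them the difference was -0.45 ± 0.14 (SE, limma, adjusted p = 0.158). Without the 3 marked arrays, which left only stressed replicates 3 and 4, it was -0.75 and limma called it (adjusted p = 0.00254). Without stressed replicate 2 alone it was called too (-0.57, adjusted p = 0.0364). In T10R1 and T10R42 it was -0.07 and -0.01 (SE 0.14 each).

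**Figure D3:**
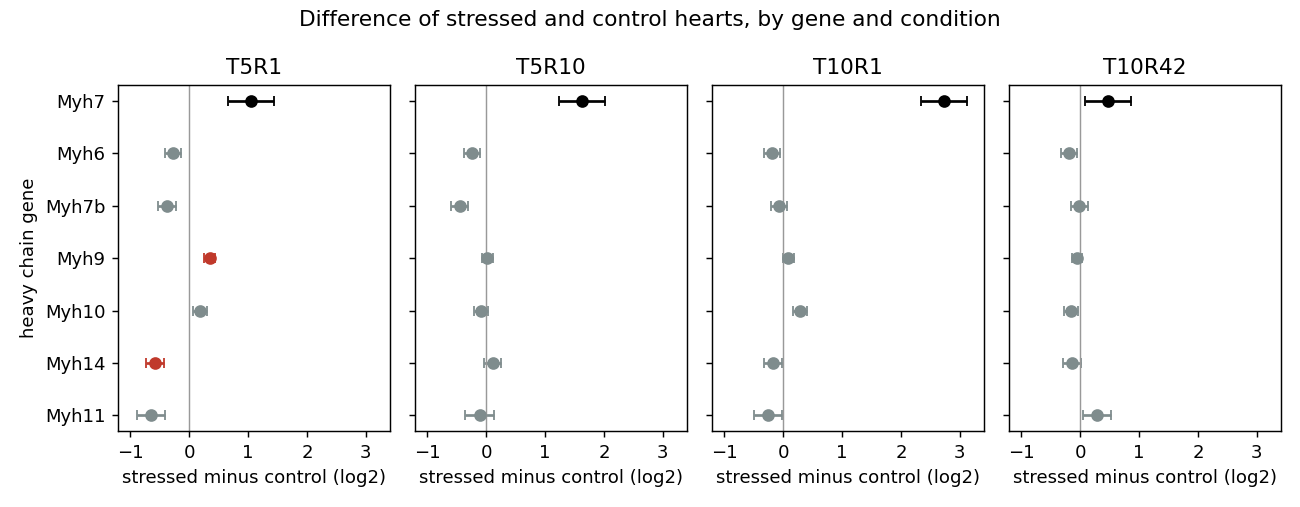
Difference of stressed minus control hearts on the log2 scale (horizontal axis) for the 7 measured genes (vertical axis) in the 4 conditions (panels), with SE bars from the limma fit of 32 arrays. Genes called at an adjusted p below 0.05 are red, others grey, and Myh7, which was not tested, is black. Red marks appear in T5R1 only, for Myh9 (0.35) and Myh14 (-0.58).

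Myh7b also differed between slides far more than between arms. Its stressed hearts read 6.78 to 7.24 on the 2 slides with 1 day of rest (T5R1 and T10R1), against 4.95 to 5.91 on the 2 slides with longer rest, a mean difference of 1.53, and control hearts read 7.03 to 7.52 against 5.70 to 5.99, a mean difference of 1.52. Slide and length of rest cannot be told apart. Of all genes tested, 6.8% had control hearts that differed at least as much, and 16.7% had no overlap between the 2 sets of slides. The first Myh8 probe was likewise higher on the slides with 1 day of rest (0.44 in stressed and 0.49 in control hearts), and the dim second Myh14 probe was lower there (-0.75 in stressed and -0.96 in control hearts).

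**Figure D4:**
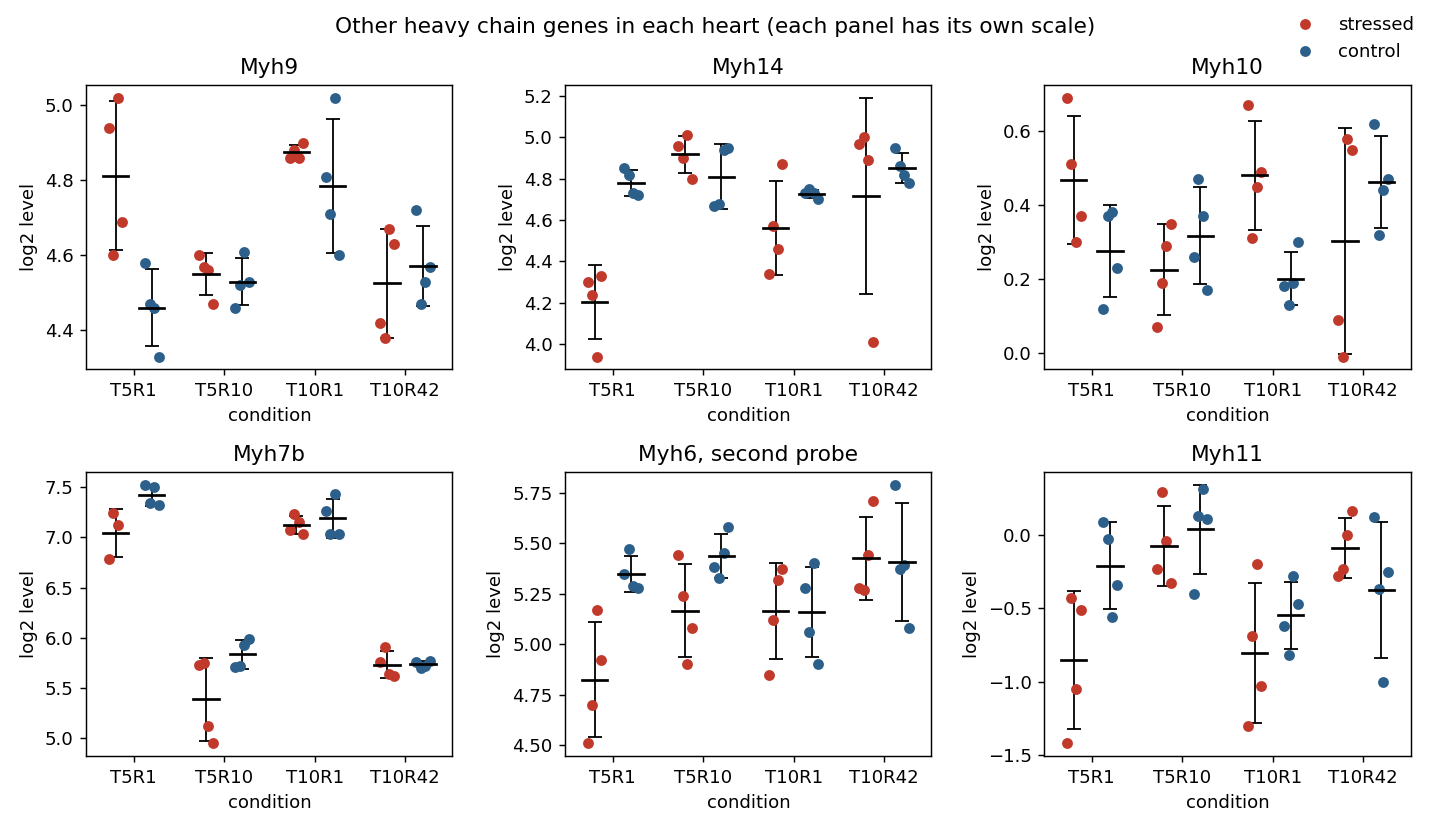
Log2 levels (vertical axis, scale differs by panel) of Myh9, Myh14, Myh10, Myh7b, the second Myh6 probe and Myh11 in each heart by condition (horizontal axis), stressed in red and control in blue, with bars for mean and SD of 4 hearts (3 for stressed T5R1 Myh7b). In T5R1 stressed Myh9 lies at 4.60 to 5.02 above control at 4.33 to 4.58, and Myh14 at 3.94 to 4.33 below control at 4.72 to 4.85.

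The differences of stress effects called none of the 6 either. They called 2.49% of all genes for T5R10 minus T5R1, 4.12% for T10R42 minus T10R1 and 0.592% for T10R1 minus T5R1. Before adjustment the counts of the 6 below 0.05 were 2, 1 and 0, beside 4733, 6307 and 4907 of all 27532 genes. For T10R42 minus T10R1, the one of the 6 with the smallest p was Myh10, at -0.44 ± 0.17 (SE, limma, adjusted p = 0.114), and Myh11 had 0.55 ± 0.34 (SE, limma, adjusted p = 0.347).

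Within the groups, the deviations of Myh7 from the group means were set against those of the 6 other genes over 32 hearts, 31 for Myh7b. None of the 6 relations passed after adjustment over the 6. The strongest was with Myh14 (Pearson's r = 0.43, permutation p = 0.0179, adjusted 0.107, Spearman's rho = 0.48, permutation p = 0.0139, adjusted 0.0834). Within conditions r was 0.87 in T5R1, 0.25 in T5R10, 0.29 in T10R1 and 0.49 in T10R42 (8 hearts each), and without the 2 hearts farthest from the median of Myh7 it was 0.44. Without stressed T10R1 replicate 1 it passed (r = 0.53, permutation, adjusted p = 0.0036), as it did without stressed T10R1 replicate 3 (r = 0.44, adjusted p = 0.0359). For Myh6 within groups r was 0.06 (permutation p = 0.789), and the other 4 had r from -0.29 to 0.09.

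The genes most like Myh7 over the 32 hearts, after each slide's mean was taken off, were Itgbl1 (r = 0.88), Cilp (0.85), Fibin (0.85), Svep1 (0.85), Ccn5 (0.84), Pamr1 (0.83), Ltbp2 (0.83) and Thbs4 (0.82). These points share the stress groups and the arrays, so the values are a description. Cilp, Ltbp2 and Thbs4 also stand in the fibroblast and matrix list given further on, which was chosen with earlier results of these data known. Cilp, a matrix protein gene, differed by 2.78, 1.36, 2.69 and 0.13 in T5R1, T5R10, T10R1 and T10R42, where Myh7 differed by 1.05, 1.62, 2.73 and 0.47. The most opposite were Pdzrn4 (-0.84), Mas1 (-0.82), Prss55 (-0.80) and E030011O05Rik (-0.74). Among the heavy chain genes r ran from -0.48 for Myh7b to 0.32 for Myh10.

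Genes around the heavy chains were read from lists chosen with earlier results known. Of 51 regulators of the Myh6 and Myh7 genes, all tested, limma called 3 higher and 4 lower in T5R1 (13.7% of all genes called), with a list median of -0.04 against -0.12 over all genes. Dio2, the deiodinase that makes active thyroid hormone inside cells, rose by 1.07 ± 0.22 (SE, adjusted p = 0.00173). Med13, a Mediator subunit that miR-208a is known to target in mouse heart, rose by 0.42 ± 0.10 (adjusted p = 0.00694). Tbx5, a transcription factor of atria and left ventricle, fell by 0.71 (SE 0.18, adjusted p = 0.00926), and Rxra, partner of thyroid hormone receptors, fell by 0.48 (SE 0.13, adjusted p = 0.016). Some of these calls were lost under alternatives: Med13 with normexp background correction (0.14, adjusted p = 0.244), and Tbx5 (adjusted p = 0.071) and Rxra (adjusted p = 0.065) with scaling by the array median. Rxra also lost it without control replicate 2 (adjusted p = 0.0684) and without stressed replicate 1 (adjusted p = 0.0678). In T10R1, where limma called 1.13% of all genes, only Dio2 was called, at 0.86 ± 0.22 (adjusted p = 0.0488). Scaling by the array median (adjusted p = 0.103) or quantile normalisation (0.134) ended that call. It was also lost without control replicate 1, 2 or 4 or stressed replicate 1, 3 or 4 of T10R1 (adjusted p from 0.0811 to 0.199).

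Of 18 thyroid hormone responsive heart genes tested, 1 was called lower in T5R1, Slc2a4, the insulin-responsive glucose transporter (-0.34 ± 0.09, SE, adjusted p = 0.00941), and none in T5R10, T10R1 or T10R42. Among all genes limma called 13.7% in T5R1, 0.0763% in T5R10, 1.13% in T10R1 and 0.897% in T10R42. With scaling by the array median the Slc2a4 difference was -0.19 and not called (adjusted p = 0.314). The list median was -0.15 in T5R1 and -0.20 in T10R1, beside -0.12 and 0.00 over all genes.

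Of 16 myosin light chain and kinase genes tested, limma called 1 higher and 3 lower in T5R1 and none in the other conditions. The shares of all genes called were 13.7% in T5R1, 0.0763% in T5R10, 1.13% in T10R1 and 0.897% in T10R42. Myl6, the light chain of nonmuscle and smooth muscle myosin, rose by 0.47 ± 0.10 (SE, adjusted p = 0.00332), while Mylk3, the cardiac kinase, fell by 0.68 (SE 0.12, adjusted p = 0.000314) and Mylk, the smooth muscle kinase, by 0.44 (SE 0.10, adjusted p = 0.00405). Mylk was not called with scaling by the array median (-0.29, adjusted p = 0.0841), nor Myl6 with the T5R1 arrays alone (adjusted p = 0.0571). Of 17 thick filament partners and folding factors, 1 was called higher and 5 lower in T5R1 (5.3% and 8.43% of all genes). Mybpc2, the fast myosin binding protein C, rose by 1.05 ± 0.13 (SE, adjusted p = 5.27e-06), and Myom2, an M-band protein, fell by 0.69 (SE 0.10, adjusted p = 4.7e-05), as did Smyd1, a myosin chaperone partner, by 0.47 (SE 0.09, adjusted p = 0.000595). In T10R1 limma called Mybpc2 of this list (0.56 ± 0.13, SE, adjusted p = 0.0281), but not with the T10R1 arrays alone (adjusted p = 0.111) or without any 1 of the control hearts or of stressed replicates 1, 3 and 4 (adjusted p from 0.0578 to 0.118).

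The fetal and load genes, of which 22 were tested, had 8 called higher and 3 lower in T5R1, where 13.7% of all genes were called. In T10R1 (1.13% of all genes called) 2 were called higher and 1 lower. None was called in T5R10 or T10R42, where 0.0763% and 0.897% of all genes were called. The natriuretic peptide genes Nppa and Nppb of this list were not among the called genes in any condition. In the mean, 11 of the 22 were higher in T5R1, with a list median of 0.03 beside -0.12 over all genes. Acta1, the skeletal alpha actin that hearts make under load, rose by 1.74 ± 0.28 in T5R1 (SE, adjusted p = 0.000132) and by 1.38 ± 0.28 in T10R1 (adjusted p = 0.0128). The T10R1 call was lost with the T10R1 arrays alone (adjusted p = 0.16) and without stressed replicate 1 (1.32, adjusted p = 0.0572). The 3 called lower in T5R1 were Tnni1 (-0.63, limma, adjusted p = 0.00863), Tnnt1 (-0.37, adjusted p = 0.0105) and Hopx (-0.51, adjusted p = 0.0121). Each of these calls was lost in 3 of 22 alternatives. Tnnt1 was also the 1 called lower in T10R1 (-0.39, limma, adjusted p = 0.0405), which 12 of 22 alternatives ended. Of 18 nonmuscle myosin partners tested, 7 were called higher and 0 lower in T5R1 (5.3% and 8.43% of all genes). Among them were S100a4, which binds nonmuscle myosin IIA, at 0.98 ± 0.14 (SE, adjusted p = 3.9e-05), Iqgap1 at 0.61 ± 0.13 (adjusted p = 0.00194) and Actn1 at 0.53 ± 0.14 (adjusted p = 0.011). Actn1 was not called without stressed replicate 1 (0.35, adjusted p = 0.066).

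Other heavy chain genes were measured by 7 probes of Myh3, Myh4, Myh8, Myh13 and Myh15. Myh13 and Myh15 were not well above background on any array. The embryonic chain gene Myh3 was well above background only on the slides with longer rest (7 of 8 stressed and 8 of 8 control hearts) and so has no fold in T5R1, where limma called it lower, or in T10R1, and the fast chain gene Myh4 on 12 arrays in all. Myh8, the perinatal chain gene, had no called difference by its first probe (-0.25 ± 0.09 in T5R1, SE, limma, adjusted p = 0.0743). Its second probe was called lower in T5R1 (-0.44 ± 0.14, SE, limma, adjusted p = 0.0358 over all kept probes).

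Myh1 was well above background on 1 of 32 arrays, stressed T10R42 replicate 4, and Myh2 on 0 of 32. Heart muscle markers were all measured (18 of 18 tested), with summed levels of 5932 to 7756 times the 75th percentile in stressed T5R1 hearts, against 7750 to 8174 in control T5R1 hearts. Such sums, here and below, weigh each gene by the brightness of its probe. They can be compared between hearts for the same list only. Of the 18, limma called 4 lower and 0 higher in T5R1 (8.43% and 5.3% of all genes). It called none in T5R10 (0.0763% of all genes), T10R1 (1.13%) or T10R42 (0.897%).

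Some of the cell type marker lists, also chosen with earlier results known, differed between stressed and control hearts. Their part in these results was not tested. In a bulk sample, fewer cells of a type and less RNA per cell cannot be told apart. Of 18 fibroblast and matrix markers, all tested, 13 were called higher in T5R1 and 12 in T10R1 (13.7% and 1.13% of all genes called). Dcn, Pdgfra, Tcf21 and Ddr2 of this list were called in neither, though all 18 were higher in the mean in both. None of the 18 was called in T5R10 or T10R42 (0.0763% and 0.897% of all genes called). In T5R10 15 of the 18 were still higher in the mean, with a list median of 0.50 beside -0.02 over all genes. In T10R42 11 were, with 0.07 beside -0.03. Before adjustment, limma put 8 of the 18 below 0.05 in T5R10 and 0 in T10R42 (3843 and 5166 of all 27532 genes). Their summed levels were 497.1 to 1053 in stressed against 337.1 to 355.9 in control T5R1 hearts, and 436.5 to 734.1 in stressed against 306.6 to 331.3 in control T10R1 hearts. In T5R10 the sums were 344.8 to 419.8 in stressed and 328.1 to 361.7 in control hearts.

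Beside Myh9 in T5R1, 7 of 14 macrophage markers and 14 of 15 dividing cell genes tested were called higher, with macrophage sums of 94.93 to 113.3 in stressed and 89.09 to 110.0 in control hearts and dividing cell sums of 9.72 to 15.14 in stressed and 2.73 to 3.00 in control hearts. Beside Myh11, smooth muscle and pericyte markers had 1 of 20 called higher and 6 lower in T5R1, with sums of 230.8 to 251.3 in stressed and 249.0 to 274.6 in control hearts. Of 15 atrial markers tested, 3 were called lower in T5R1, and the sums overlapped, 766.2 to 1593 in stressed and 1173 to 1878 in control hearts. Only 1 of the 15 was higher in the mean of stressed hearts there. The list median was -0.91 beside -0.12 over all genes. Before adjustment, limma put 9 of the 15 below 0.05, beside 8126 of all 27532 genes. Skeletal muscle markers (19 of 21 tested) had 1 called higher and 4 lower in T5R1, and endothelial markers 0 of 12. These marker counts in T5R1 stand beside 5.3% of all genes called higher and 8.43% called lower.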

How the data were processed

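One-colour arrays of heart RNA from 32 mice were analysed, 1 array per mouse. Spot brightness was deposited as intensity values. Per the file headers these came from Agilent Feature Extraction 10.7.3.1, with its spatial detrending and background subtraction applied. The files also hold other values, per the file headers, namely flags for spots above background, saturated or outlying. The value table of the authors holds log2 values that match the log2 mean spot signal (correlation of at least 0.9995, at most 0.98293 with the processed signal), is not centred by gene, and has column medians of 5.854 (T10R1), 6.027 (T10R42), 6.259 (T5R10) and 6.223 to 6.224 (T5R1); it served as an alternative.

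Processed signals were divided by the 75th percentile of their array and put on the log2 scale. That percentile ran from 237.2 to 498.9 with 28792 to 40672 probes well above background. Outlier spots were left out. A probe was kept if well above background on at least 3 of 4 arrays of a group and missing on at most 4 arrays, and the brightest kept probe stood for a gene. limma 3.58.1 in R 4.3.3 fitted 8 group means over 32 arrays (24 residual and 2.28 prior degrees of freedom), two-sided, with Benjamini-Hochberg adjustment over 27532 genes and calls below 0.05. Within-group correlations used 100000 permutations. The number of arrays limits the precision. The script was tested on simulated data.

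The members and gene lists were chosen with earlier results of these data known. Named were all members and their probes, the other heavy chain genes, called list genes by smallest p, and the genes with the most similar and most opposite profile to Myh7; a part of these is given. Myh7 and its balance to Myh6 have no test because Myh7 chose the members. Alternatives were normexp correction, quantile normalisation, the authors' values, other scalings and dim probe filters, probe averaging, each probe on its own, the arrays of a condition alone, an intensity trend, slide row and replicate blocks, and leaving out marked arrays or each array in turn. The balance against the second Myh6 probe was added after seeing the data.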

Additional observations from a re-analysis of the deposited data

Results flagged for a closer look

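In 71 groups of 4 hearts (9 kept probes of the members in 8 groups, less 1 with a missing value), 2 had a heart far from the other 3, where chance gives about 1 in 20 groups. Myh7 in control T10R42 replicate 1 was 5.83, against 4.25 to 4.39 in the other control hearts of that condition. Myh14 in stressed T10R42 replicate 4 was 4.01, against 4.89 to 5.00 in the other stressed hearts of that condition.

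Myh1, which no comparison of the report uses, was well above background in stressed T10R42 replicate 4 at a log2 level of -3.21, the only such array of 32, and on 0 of 16 control arrays.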

How the results depend on the processing

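Over the 42 results for the 6 genes other than Myh7 (6 genes in 7 comparisons), 1068 alternative values gave 4 calls lost, 8 gained and 0 reversed, with 51 changes of sign where neither value was called. Of the 6 members, 1 in place of 2 was called in T5R1 with scaling by the array median and with the arrays of the condition alone. For T5R10 minus T5R1, 1 in place of 0 was called with the authors' value table (Myh9) and with the arrays of those conditions alone (Myh14). Without the 3 arrays marked by the scanner software, T5R10 had 1 member called in place of 0, a Myh7 difference of 2.33 in place of 1.62 and a balance of 2.45 in place of 1.86, and T5R10 minus T5R1 for Myh7 was 1.28 in place of 0.57. That setting left only stressed replicates 3 and 4 in T5R10. Scaled by the array median, 1 within-group relation of Myh7 passed in place of 0 (Myh14). Tpm3 in T5R1 turned to -0.44 (adjusted p = 0.485) with the mean of its probes, from 0.28. The causes were not tested.

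Leaving out each array in turn, the members called ranged from 1 to 3 in T5R1 and 0 to 1 in T5R10 and stayed at 0 in T10R1, T10R42 and the 3 differences of stress effects. The within-group relations passing ranged from 0 to 1. Myh7's difference ranged from 0.81 to 1.33 in T5R1, 1.33 to 1.87 in T5R10, 2.53 to 3.12 in T10R1 and 0.31 to 0.84 in T10R42, and the balance from 1.11 to 1.72, 1.64 to 2.12, 2.67 to 3.29 and 0.47 to 0.98.

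Replicate numbers did not pair the arms (correlations of same-numbered hearts from -0.27 to 0.21, with the own number best for 3, 4, 4 and 2 of the 8 hearts in T5R1, T5R10, T10R1 and T10R42). With the replicate block, 2 members were called in T5R1 and 0 in T5R10, T10R1, T10R42 and the differences, as without it, while the genes called among all tested were 0 in place of 21 in T5R10, 396 in place of 686 for T5R10 minus T5R1 and 33 in place of 163 for T10R1 minus T5R1.

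Counts over all genes moved more. They ranged from 2177 (without stressed replicate 1) to 4956 in T5R1 (3778 reported), from 0 to 1088 (without the 3 marked arrays) in T5R10 (21), from 4 to 352 in T10R1 (312) and from 0 to 1444 (without stressed replicate 2) in T10R42 (247). With the arrays of a condition alone they were 0 in T5R10, 4 in T10R1 and 0 in T10R42. For the differences they ranged from 209 to 1062 (686), from 305 (without stressed T10R42 replicate 3) to 2093 (without stressed T10R42 replicate 2; 1135 reported) and from 11 (without control T5R1 replicate 2) to 546 (163). The share of lower calls in T5R1 was 17.6% with the array median, 38.7% with the authors' table, 40.0% with quantile normalisation and 49.4% with probes detected on all arrays, in place of 61.4%. The median of all genes in T5R1 ranged from -0.18 to 0.03.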
